A study of Homo sapiens with 12 samples.

Results

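The BCL2 family of apoptosis regulators was followed here as 10 genes chosen by name: the survival genes MCL1, BCL2, BCL2L1 and BCL2A1, the BH3-only genes BCL2L11, PMAIP1, BBC3 and BID, and the effector genes BAX and BAK1. Of these, 9 had at least 1 probe set carrying that symbol alone, out of 11963 genes so measured, and they were represented by 22 probe sets. BBC3, which encodes the BH3-only protein PUMA, was matched only by a probe set that the platform annotation also assigns to microRNA genes, and was not analysed here. MDA-MB-231, an established human line of triple-negative breast cancer, was grown in serum-containing medium and exposed for 24 h to the solvent DMSO or to 1 of 3 compounds: manassantin, rotenone or digoxin. Each of the 4 groups has 3 arrays. Rotenone inhibits respiratory complex I, digoxin is a cardiac glycoside that inhibits the sodium pump, and manassantin is a plant lignan whose form the study's design text gives as manassantin A. That text writes digitoxin, a sister glycoside, where the sample titles write digoxin; the titles' name is used. The sources used here give neither dose nor oxygen level. They also do not say whether replicate arrays stem from independent cultures, so p-values reflect only array-to-array spread that could be technical. The study has 1 cell line and RNA from whole cultures, in which fewer cells of a type and less RNA per cell cannot be told apart.

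Proteins of this family decide whether the outer mitochondrial membrane is opened. BAX and BAK (the product of BAK1) form the pores that release cytochrome c, the survival proteins hold them in check, and BH3-only proteins such as BIM (BCL2L11), NOXA (PMAIP1), PUMA and BID neutralise the survival proteins or activate the effectors. MCL1 and NOXA turn over quickly and NOXA binds MCL1 with preference, while BIM binds all survival members; several members are controlled by transcription as well as after translation. The arrays report transcripts only.

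All values below are log2 expression as deposited, where a difference of 1 is a 2-fold change, given for the brightest probe set of each gene (the main probe set) unless another is named. Levels of different genes are compared only for a rough placing as dim, bright or by percentile, since each probe set has its own response. Differences were tested with limma over all 11963 genes, and a gene is called where its Benjamini-Hochberg adjusted p is under 0.05. A gene is termed dim where its mean over all arrays lies under the 40th percentile of genes, a log2 value of 5.747; of the members BCL2, BCL2A1 and BCL2L11 were dim. Mesenchymal markers of the line were bright except SPARC (VIM 13.2, AXL 12.5, CD44 11.7 over all arrays), PGR, CDH1 and FOXA1 were dim, all 4 measured leukocyte markers were dim and so were 7 of 8 fibroblast and endothelial markers. ESR1 was just above the dim limit (6.19), and ERBB2 (7.92), GATA3 (8.002), EPCAM and the keratin genes KRT8, KRT18 and KRT19 were not dim either, so 3 of 10 luminal and hormone receptor markers were dim. The 18S rRNA control averaged 10.4 ± 0.315 (SD, n = 3) with DMSO, 9.83 ± 0.481 with manassantin, 10.0 ± 0.152 with rotenone and 10.1 ± 0.163 with digoxin.

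With manassantin no measured member passed the threshold. Rotenone raised the BH3-only gene BCL2L11 by 1.41-fold and the effector gene BAK1 by 1.21-fold and lowered no member. Digoxin raised MCL1 (1.53-fold), BCL2L11 (1.47-fold) and BAK1 (1.44-fold) and lowered BAX (1.37-fold) and BCL2L1 (1.13-fold). BID was called higher on its main probe set (1.13-fold) but lower on its other one, so no single direction can be given for it. With manassantin 0 of 9 members were called by limma, where 0.970% of all genes were (0.853% higher, 0.117% lower); 0 of 9 had an unadjusted p under 0.05, where 15.8% of all genes did, and the count was 0 of 22 when every probe set was tested (0.546% of probe sets). With rotenone 2 of 9 were called, both higher, where 6.94% of all genes were (3.55% higher, 3.39% lower). With digoxin 6 of 9 were called, 4 higher and 2 lower, where 54.8% of all genes were (28.0% higher, 26.9% lower). The members' 66.7% lies near that share, so the digoxin count is no result about the family. Median centring moved the digoxin shares of all genes to 42.0% higher and 22.4% lower, and the members to 6 higher and 1 lower. The arrays of a compound and DMSO did not overlap for 1 of 9 members with manassantin (22.4% of all genes), 5 with rotenone (31.2%) and 7 with digoxin (61.9%). The median difference of the members was -0.02, -0.07 and 0.20, against 0.01, 0.01 and 0.07 for all genes. The 3 comparisons share the DMSO arrays.

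**Figure D1:**
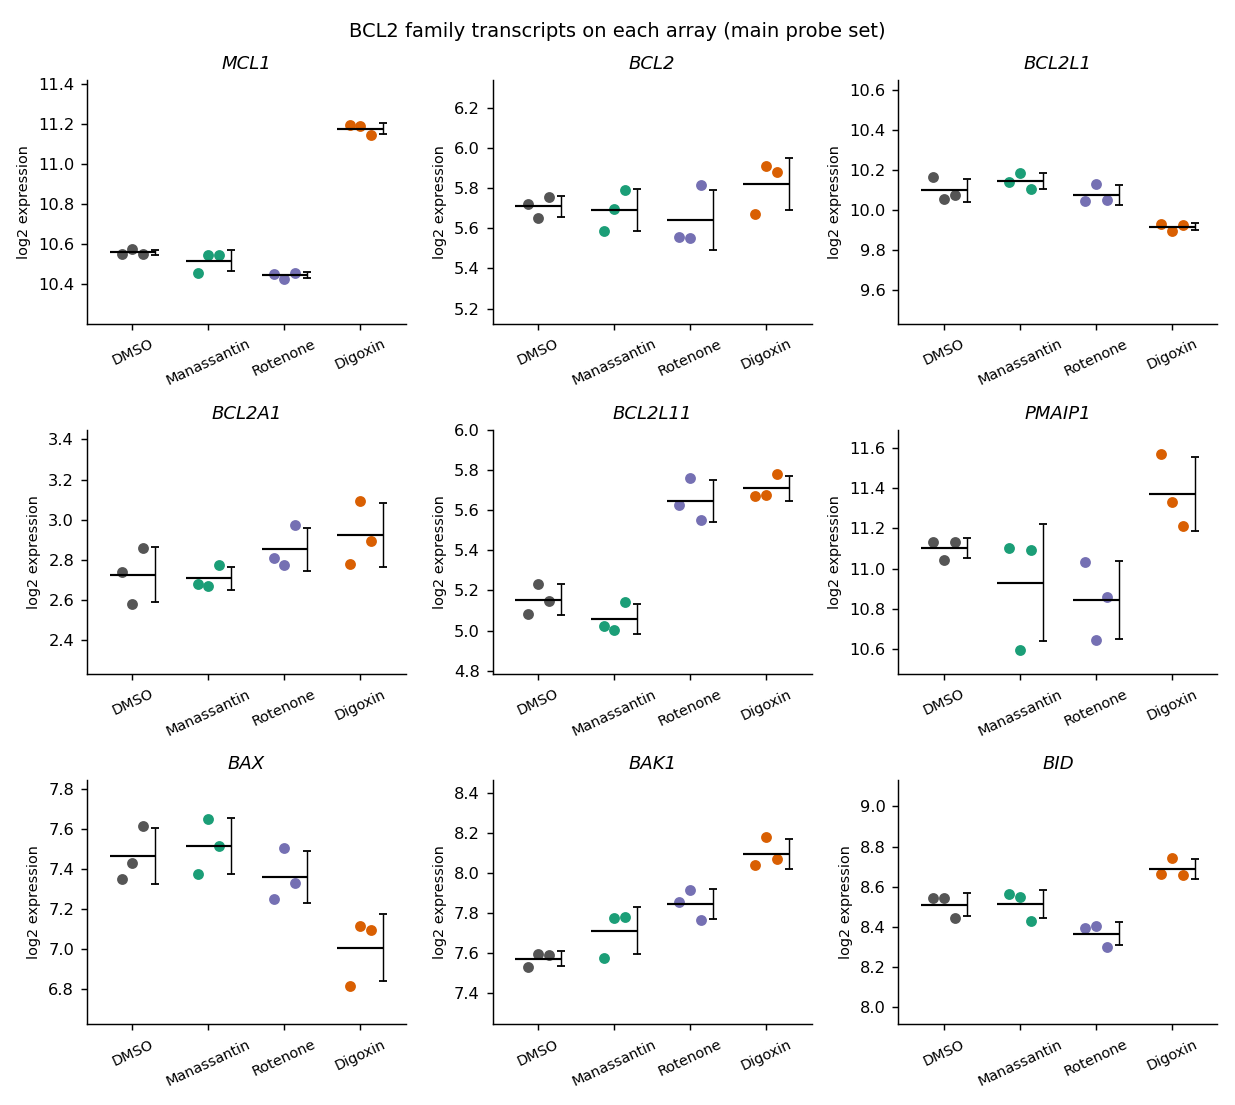
Log2 expression of the main probe set of each of the 9 measured BCL2 family genes on every array (points, 3 per group), with the group mean (horizontal line) and SD (bar). All panels span the same number of log2 units; the digoxin arrays stand above all others for MCL1, PMAIP1, BAK1 and BID and below all others for BAX and BCL2L1, and for BCL2L11 rotenone and digoxin arrays lie above DMSO and manassantin arrays.

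Among the survival genes MCL1 had the widest range. On the DMSO arrays it read 10.55, 10.58 and 10.55, with manassantin 10.46, 10.55 and 10.55, with rotenone 10.45, 10.43 and 10.46 and with digoxin 11.19, 11.19 and 11.14. The digoxin arrays did not overlap with any other array, and the other 3 groups lay within a narrow band. Digoxin against DMSO gave 0.62 ± 0.043 (SE; adjusted p = 1.69e-07), a rise that was also called on each of the gene's 4 other probe sets (0.29 to 0.57), where 51.1% of all probe sets were called. In order of level the groups ran rotenone, manassantin, DMSO, digoxin. Neither neighbouring pair below digoxin was called (manassantin against rotenone, adjusted p = 0.365; manassantin against DMSO, adjusted p = 0.683), and rotenone against DMSO stood at -0.11 (95% interval -0.21 to -0.02, adjusted p = 0.15).

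With rotenone the MCL1 probe sets disagreed. The second brightest read 9.24, 9.16 and 9.24 with DMSO and 9.38, 9.47 and 9.43 with rotenone, so its groups did not overlap, and when every probe set was tested it rose by 0.21 ± 0.055 (adjusted p = 0.0428), where 5.18% of all probe sets were called. The 3 others stood at 0.28 (adjusted p = 0.0886), 0.004 and -0.08. The main probe set stood at -0.11 and was called lower with a trended robust prior (adjusted p = 0.0404, in a range of 0.0404 to 0.989 over all alternatives and probe sets), so no single direction can be given for MCL1 with rotenone.

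BCL2L1, which encodes the survival protein BCL-XL, was lower with digoxin by a small margin. Its arrays read 10.17, 10.06 and 10.08 with DMSO against 9.93, 9.90 and 9.93 with digoxin, without overlap, a difference of -0.18 ± 0.048 (adjusted p = 0.00697). After centring each array on its median the difference was -0.09 and not called (adjusted p = 0.106, in a range of 0.000784 to 0.232 over all alternatives and probe sets). The other probe sets gave -0.20 (adjusted p = 0.045) and -0.18 (adjusted p = 0.232), so all 3 pointed down. Rotenone and manassantin stood at -0.02 (95% interval -0.13 to 0.08) and 0.04 (-0.06 to 0.15) from DMSO.

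BCL2, the founding survival gene, had no call on its main probe set with any compound (digoxin 0.11, 95% interval -0.08 to 0.30, adjusted p = 0.285). Its 4 probe sets did not move together with digoxin. One of them read 5.75, 5.89 and 5.92 with DMSO and 5.32, 4.72 and 5.12 with digoxin, a fall of 0.80 on the log2 scale, with an SE of 0.115 (adjusted p = 8.1e-05 over every probe set). Another went the other way, from a mean of 4.40 to 4.81 (0.41 ± 0.155, adjusted p = 0.0444), with digoxin replicate 2 at 5.18 and the other digoxin arrays at 4.63 and 4.603. The last stood at 0.08. Every BCL2 probe set lay near or under the dim limit, and no single direction can be given for the gene.

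BCL2A1, an NF-kB-inducible survival gene, was near the floor of the array, with a mean over all arrays of 2.80 that placed it at the 4.7th percentile of genes. Its group means were 2.73 with DMSO, 2.71 with manassantin, 2.85 with rotenone and 2.92 with digoxin, and the ranges of all groups overlapped except those of manassantin and digoxin. Digoxin against DMSO stood at 0.20 (95% interval -0.002 to 0.40, adjusted p = 0.0861), with adjusted p from 0.0188 to 0.323 over the alternatives. At this signal a change in BCL2A1 was not resolved.

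**Figure D2:**
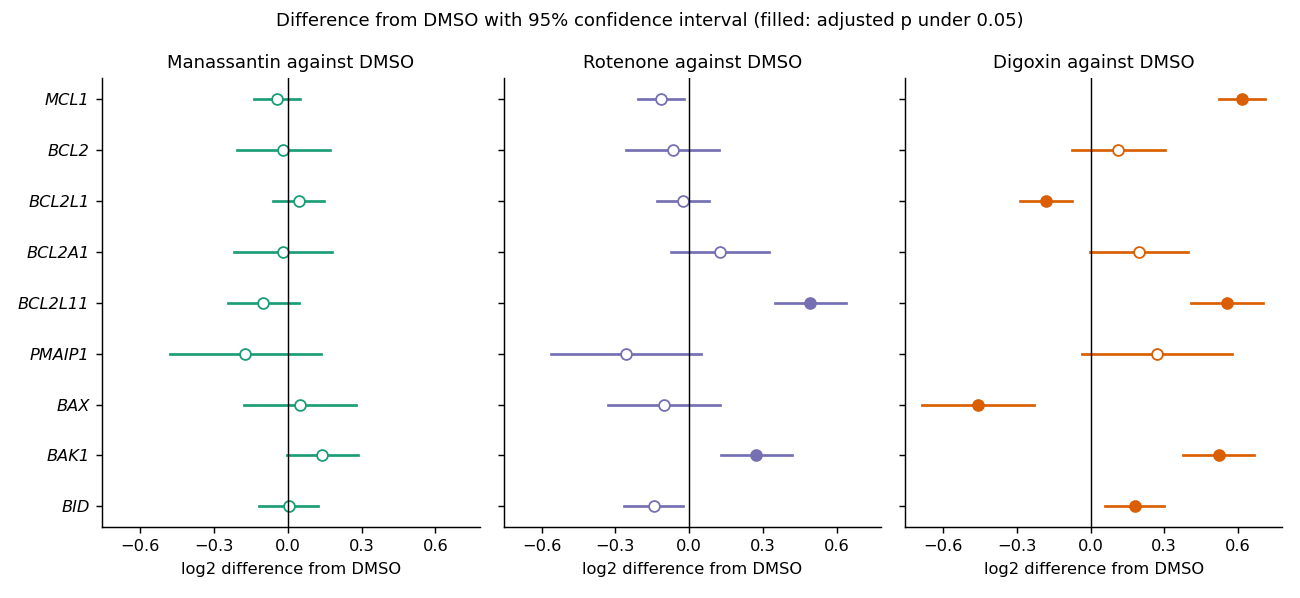
Log2 difference from DMSO (horizontal axis) of the 9 measured members with manassantin, rotenone and digoxin; lines are 95% confidence intervals of the limma fit and filled points have an adjusted p under 0.05. All manassantin intervals include 0; with rotenone BCL2L11 and BAK1 are filled, and with digoxin MCL1, BCL2L11, BAK1 and BID to the right and BAX and BCL2L1 to the left.

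Among the BH3-only genes BCL2L11, which encodes BIM, separated the arrays into a lower and a higher pair of groups. It read 5.08, 5.23 and 5.15 with DMSO and 5.03, 5.001 and 5.14 with manassantin, against 5.63, 5.76 and 5.55 with rotenone and 5.67, 5.67 and 5.78 with digoxin. No array of the higher pair overlapped with one of the lower pair. The rise over DMSO was 0.49 ± 0.067 with rotenone (adjusted p = 0.00121) and 0.55 ± 0.067 with digoxin (adjusted p = 1.73e-05), and rotenone and digoxin differed by -0.06 (95% interval -0.21 to 0.08, adjusted p = 0.458), while the second probe set stood at 0.25 in that comparison and was not called. With rotenone this was the 56th largest rise of all 11963 genes. Both calls held in all 15 alternatives each. The second probe set read between 3.28 and 3.97 with DMSO and between 4.16 and 4.41 with rotenone, a rise of 0.73 ± 0.183 (adjusted p = 0.0393); with digoxin it rose by 0.49 (adjusted p = 0.0423) although its arrays overlapped with those of DMSO. Both probe sets were dim, and less than 1 log2 unit separated their groups.

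Manassantin did not share that rise. BCL2L11 stood at -0.10 from DMSO (95% interval -0.24 to 0.05, adjusted p = 0.513), and the direct comparison of manassantin with rotenone gave -0.59 ± 0.067 (adjusted p = 0.000447). By size this was the 38th largest difference downward among all genes in that comparison, and it was the only member called there, where 8.47% of all genes were (4.69% higher, 3.78% lower). Its second probe set was also lower (-0.77, adjusted p = 0.0295), where 6.81% of all probe sets were called, and so was the second brightest of MCL1 (-0.36, adjusted p = 0.00319). The arrays of manassantin and rotenone did not overlap for 2 members, BCL2L11 and BID (29.2% of all genes).

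PMAIP1, which encodes NOXA, was the most variable member between replicates. Its main probe set read 11.13, 11.04 and 11.13 with DMSO, 11.10, 10.59 and 11.09 with manassantin, 11.03, 10.64 and 10.86 with rotenone and 11.57, 11.33 and 11.21 with digoxin. Replicate 2 was the lowest array with manassantin and with rotenone. Digoxin against DMSO was 0.27 ± 0.14 on this probe set (adjusted p = 0.122), without overlap of the arrays, and adjusted p ranged from 0.00658 to 0.363 over the alternatives that kept 1 value per gene. The median-centred values, the mean of both probe sets, the replicate block, the 18S covariate and the fit of only these groups called it, with adjusted p of 0.0369, 0.00658, 0.0489, 0.0422 and 0.04. The second probe set read 9.56, 9.60 and 9.64 with DMSO and 10.00, 10.01 and 10.08 with digoxin, a rise of 0.43 ± 0.068 (adjusted p = 0.000177). On it rotenone (-0.07, adjusted p = 0.643) and manassantin (-0.01, adjusted p = 0.959) stood close to DMSO.

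BID, which is cleaved by caspase-8 and links death receptors to mitochondria, gave opposite answers on its 2 probe sets with digoxin. The main probe set rose from 8.54, 8.54 and 8.44 with DMSO to 8.66, 8.74 and 8.66 (0.18 ± 0.055, adjusted p = 0.0159). The other fell from 7.64, 7.57 and 7.60 to 7.49, 7.26 and 7.42 (-0.21 ± 0.071, adjusted p = 0.0233). Their mean stood at -0.02 (adjusted p = 0.792), and the main call was also lost without DMSO replicate 3 (adjusted p = 0.069) or digoxin replicate 2 (adjusted p = 0.0588) and with the 18S covariate (adjusted p = 0.0586), in a range of 0.00183 to 0.792. With rotenone both probe sets pointed down, at -0.14 (adjusted p = 0.154) and -0.24 (adjusted p = 0.0736), without overlap between the groups. Manassantin against rotenone stood at 0.15 for BID (adjusted p = 0.127); with the replicate number as a block it was called (adjusted p = 0.047, within a range of 0.047 to 0.343), which made 2 called members in place of 1.

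The effector genes moved apart with digoxin. BAK1 read 7.53, 7.60 and 7.59 with DMSO, 7.58, 7.78 and 7.78 with manassantin, 7.86, 7.91 and 7.77 with rotenone and 8.04, 8.18 and 8.07 with digoxin. Digoxin arrays lay above all others and rotenone arrays above all DMSO arrays. The order DMSO, manassantin, rotenone, digoxin had called differences from DMSO for rotenone (0.27 ± 0.066, adjusted p = 0.0299) and digoxin (0.52 ± 0.066, adjusted p = 2.68e-05), and digoxin exceeded rotenone by 0.25 (adjusted p = 0.00719). The neighbours manassantin and DMSO (0.14, 95% interval -0.01 to 0.28, adjusted p = 0.335) and manassantin and rotenone (-0.13, adjusted p = 0.256) were not called. The rotenone call was close to the threshold. It was lost without any 1 of the DMSO arrays, without rotenone replicate 1 or 2, and with the 18S control as a covariate (adjusted p = 0.0695). When 1 array was left out, adjusted p ran from 0.0433 to 0.127 and the difference from 0.24 to 0.31. Over all alternatives adjusted p ran from 0.0073 to 0.127.

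BAX read 7.35, 7.43 and 7.62 with DMSO, 7.37, 7.65 and 7.51 with manassantin, 7.25, 7.505 and 7.33 with rotenone and 6.82, 7.11 and 7.09 with digoxin. The digoxin arrays were below all others, and the remaining groups overlapped. Digoxin against DMSO was -0.46 ± 0.10 (adjusted p = 0.00273), and the second probe set fell by 0.56 on the log2 scale (adjusted p = 0.00175). BAX was also higher with manassantin than with digoxin (0.51 ± 0.10, adjusted p = 0.0013). Rotenone (-0.10, 95% interval -0.33 to 0.13) and manassantin (0.05, -0.18 to 0.28) were not separated from DMSO.

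**Figure D3:**
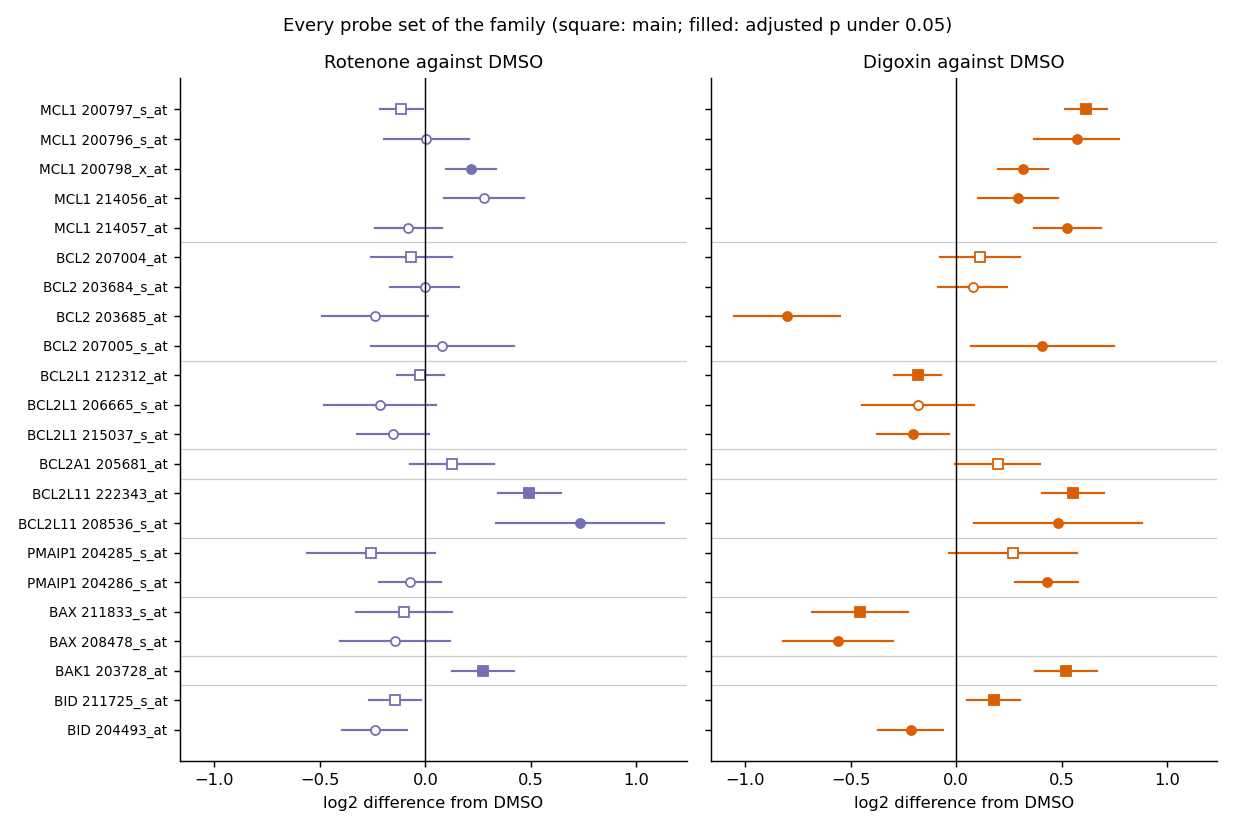
Log2 difference from DMSO of all 22 probe sets of the family with rotenone and digoxin; lines are 95% confidence intervals, squares mark the main probe set and filled symbols an adjusted p under 0.05 over every probe set. With digoxin all 5 MCL1, both BCL2L11 and both BAX probe sets agree in direction, while those of BCL2 and BID fall on both sides of 0.

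Promoter sequences are shown for 4 members with 1 RefSeq window each that rose or fell on at least 1 probe set; BCL2, whose probe sets disagreed, is not shown. RefSeq promoters (GRCh38.p14) reaching from 250 bases before to 50 after the annotated start were found for 9 of the 10 genes; MCL1 had no entry. In each the motifs AP-1 (TGANTCA), CRE (TGACGTCA), CRE half-site (TGACGT, which overlaps the CRE), FOXO (GTAAACA), E2F (TTTCCCGC and TTTGGCGC), E-box (CACGTG), GC box (GGGCGG) and NF-kB were searched on both strands. The 2 genes called higher with both rotenone and digoxin on the main probe set are BCL2L11, at chr2:111120664-111120963 on the plus strand, and BAK1, at chr6:33580227-33580526 on the minus strand. The BAK1 call with rotenone was close to the threshold. BAX, at chr19:48954625-48954924 on the plus strand, fell with digoxin, and PMAIP1, at chr18:59899746-59900045 on the plus strand, rose on its second probe set. Capitals mark matches other than GC boxes.
BCL2L11: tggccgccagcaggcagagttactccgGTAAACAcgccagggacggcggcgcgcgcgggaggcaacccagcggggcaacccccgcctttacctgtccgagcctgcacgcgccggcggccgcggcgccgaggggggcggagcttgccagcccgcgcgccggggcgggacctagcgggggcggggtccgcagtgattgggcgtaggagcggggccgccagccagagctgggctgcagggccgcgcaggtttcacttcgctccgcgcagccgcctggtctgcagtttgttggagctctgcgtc
BAK1: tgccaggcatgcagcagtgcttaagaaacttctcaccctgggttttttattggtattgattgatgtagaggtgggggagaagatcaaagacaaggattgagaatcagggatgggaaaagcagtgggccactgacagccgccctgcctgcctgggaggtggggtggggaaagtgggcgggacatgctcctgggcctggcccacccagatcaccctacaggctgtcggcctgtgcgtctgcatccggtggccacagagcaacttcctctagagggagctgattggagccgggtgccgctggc
BAX: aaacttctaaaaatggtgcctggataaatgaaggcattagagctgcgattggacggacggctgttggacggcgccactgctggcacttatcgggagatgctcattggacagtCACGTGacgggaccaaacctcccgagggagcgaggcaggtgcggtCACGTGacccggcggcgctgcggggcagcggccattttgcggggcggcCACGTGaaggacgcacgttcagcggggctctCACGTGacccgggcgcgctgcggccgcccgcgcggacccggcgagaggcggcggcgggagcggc
PMAIP1: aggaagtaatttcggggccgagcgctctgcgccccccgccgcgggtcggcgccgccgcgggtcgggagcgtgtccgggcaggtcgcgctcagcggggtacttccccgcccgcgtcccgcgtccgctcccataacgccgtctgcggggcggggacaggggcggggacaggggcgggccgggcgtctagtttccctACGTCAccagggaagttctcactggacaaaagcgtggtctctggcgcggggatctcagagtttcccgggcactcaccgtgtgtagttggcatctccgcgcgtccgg

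The BCL2L11 window held a FOXO match at position -223 from the start, a motif present in 3.42% of all 35116 promoters of that length, and 3 GC boxes. The BAK1 window held 2 GC boxes and no match to the other motifs searched. The BAX window held 4 E-boxes, at positions -138, -93, -45 and -14; an E-box was present in 7.26% of promoters and 4 or more in 0.0142%, or 5 promoters. The PMAIP1 window held a CRE half-site on the opposite strand at position -56 (7.98% of promoters) and 4 GC boxes. No motif other than the GC box (45% of promoters) was shared between BCL2L11 and BAK1 in these windows. BCL2L1 and BID, also called with digoxin, have several windows each. Of these, 2 overlapping windows of BID held the same E-box.

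Comparing compounds directly, 7 of 9 members differed between manassantin and digoxin, where 56.7% of all genes did (28.1% higher, 28.6% lower), and 6 of 9 between rotenone and digoxin, where 50.5% did (26.3% higher, 24.2% lower). Arrays did not overlap for 8 and 6 members (59.7% and 58.1% of all genes). Both comparisons share the digoxin arrays. MCL1 was lower with manassantin by 0.66 on the log2 scale (-0.66 ± 0.043, adjusted p = 8.57e-08) and with rotenone by 0.73 (-0.73 ± 0.043, adjusted p = 4.88e-08) than with digoxin. On every probe set the rotenone difference of MCL1 was called for 3 of 5, where 47.2% of all probe sets were; the other 2 stood at -0.10 (adjusted p = 0.148) and -0.02 (adjusted p = 0.89). PMAIP1 was lower by -0.44 with manassantin (adjusted p = 0.0178) and by -0.53 with rotenone (adjusted p = 0.00751). The first of these was lost without digoxin replicate 1 (adjusted p = 0.0753) or manassantin replicate 2 (adjusted p = 0.0652), in a range of 0.000135 to 0.0753. On the main probe sets BCL2L1 and BAX were higher with manassantin and with rotenone than with digoxin, and BAK1 and BID lower. The BCL2L1 calls were lost with the mean of its probe sets (adjusted p = 0.447 and 0.514, in ranges of 7.76e-05 to 0.806 and 0.00293 to 0.844), and that against rotenone also with median centring (adjusted p = 0.205) and without rotenone replicate 2 (adjusted p = 0.0659). The BAX call between rotenone and digoxin was lost without rotenone replicate 2 (adjusted p = 0.0594) or digoxin replicate 1 (adjusted p = 0.0597). Quantile normalization also lost it (adjusted p = 0.0504), in a range of 0.00164 to 0.0597. The BID call between manassantin and digoxin was lost without manassantin replicate 3 (adjusted p = 0.0749) or digoxin replicate 2 (adjusted p = 0.0617), in a range of 0.00175 to 0.843. Its other probe set stood at 0.15 there (adjusted p = 0.0937) and the mean of its probe sets at -0.01 (adjusted p = 0.843). Between rotenone and digoxin the other BID probe set stood at -0.03 and was not called (adjusted p = 0.785). Of the members called against DMSO with digoxin, BCL2L11 alone was not called between rotenone and digoxin.

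Beyond the 9 members, 15 of 19 other BCL2 family and BH3-related genes were measured. With manassantin 1 rose, BNIP3L, a hypoxia-inducible mitophagy receptor (0.32 ± 0.063, adjusted p = 0.0399), against 0.970% of all genes. That call was kept in 1 of the 6 fits that left out an array, with adjusted p from 0.00131 to 0.248 over the alternatives. With rotenone 2 of 15 rose, BIK (0.27, adjusted p = 0.0244) and BNIP1 (0.20, adjusted p = 0.0419), against 6.94% of all genes. These calls were kept in 1 and 0 of the 6 such fits, with adjusted p from 0.00773 to 0.104 and from 0.0135 to 0.273. With digoxin 7 rose and 4 fell, a called share of 73.3% against 54.8% of all genes, with a median of 0.229 where all genes had 0.0651. BNIP3, a hypoxia-inducible relative of BNIP3L, fell most (-1.44 ± 0.051, adjusted p = 7.98e-10), followed by BIK (-0.44) and BNIP3L (-0.43). BNIP1, a BH3 protein of the endoplasmic reticulum (0.73), the dim gene HRK (0.61) and BECN1, the beclin of autophagy that carries a BH3 domain (0.43), rose. The HRK difference ran from 0.41 to 0.75 when 1 array was left out, and its other probe sets, at 0.15 and 0.05, were not called (adjusted p = 0.105 and 0.744). The other BNIP3L probe set, at -0.10, was not called (adjusted p = 0.32). Manassantin against rotenone had BNIP3L (0.31, adjusted p = 0.0111) and BNIP3 (0.24, adjusted p = 0.0157) higher, calls kept in 5 and 3 of the 6 fits that left out an array (adjusted p from 0.000292 to 0.0587 and from 0.000255 to 0.0628). These were 2 of 15, where 8.47% of all genes were called.

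Downstream of mitochondria, 14 of 16 caspase, apoptosome and mitochondrial factor genes were measured. Digoxin lowered 9 and raised 3, a called share of 85.7% against 54.8% of all genes, with a median of -0.379. CASP6, an executioner caspase, fell by 1.99 on the log2 scale, with an SE of 0.071 (adjusted p = 8.39e-10), DFFB, the caspase-activated DNase, stood at -1.42 and was dim, and the channel gene VDAC3 stood at -0.77, with 1 of its other probe sets at -0.14 and not called (adjusted p = 0.408). The rises were of DIABLO (0.43) and CYCS (0.41), proteins that the BAX and BAK pores release, and of HTRA2 (0.16, adjusted p = 0.0216), whose call was kept in 2 of the 6 fits that left out an array (adjusted p from 0.00139 to 0.0854 over all alternatives). HTRA2, a mitochondrial protease, was also the only gene of this list called with manassantin (0.29, adjusted p = 0.0339; 0.970% of all genes) and with rotenone (0.21, adjusted p = 0.0379; 6.94% of all genes). Neither of these last calls held when any 1 array was left out; adjusted p ran from 0.00254 to 0.362 and from 0.00809 to 0.171.

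All 4 measured inhibitors of apoptosis were called with digoxin, in both directions, where 54.8% of all genes were called. XIAP, which binds caspases directly and was dim, rose by 1.10 ± 0.054 (adjusted p = 9.38e-09) and BIRC5 by 0.30, while NAIP, also dim, stood at -0.97 and BIRC2 at -0.45. Another BIRC5 probe set stood at -0.03. With manassantin and rotenone 0 of the 4 were called, where 0.970% and 6.94% of all genes were. Manassantin against rotenone had BIRC2 (-0.24, adjusted p = 0.0251) and BIRC5 (-0.21, adjusted p = 0.027) lower, calls kept in 1 and 2 of the 6 fits that left out an array (adjusted p from 0.000856 to 0.102 and from 0.00209 to 0.136). These were 2 of 4, where 8.47% of all genes were called.

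In the death receptor pathway 12 of 15 genes were measured and digoxin raised 4 and lowered 4, a called share of 66.7% that lies near the 54.8% of all genes. The ligand gene TNFSF10, which encodes TRAIL, stood at -1.21, and the adaptor genes FADD and TRADD at -0.90 and -0.82, though 1 of the other TRADD probe sets stood at 0.20 (adjusted p = 0.172). The decoy receptor genes TNFRSF10D (1.04) and TNFRSF10C (0.39), both dim, rose; the other TNFRSF10C probe set, at 0.18, was not called (adjusted p = 0.257). CFLAR, which encodes the caspase-8 inhibitor FLIP, rose by 1.14 on its brightest probe set (adjusted p = 7.03e-09), but its other probe sets disagreed. Of these, 3 rose, by 1.19, 0.69 and 0.27 (adjusted p = 9.4e-09, 0.00113 and 0.0372), and 3 fell, with values of -0.26, -0.29 and -0.30 (adjusted p = 0.0432, 0.00396 and 0.0078). With rotenone TNFRSF10C rose (0.25, adjusted p = 0.0257; kept in 1 of the 6 fits that left out an array, range 0.0233 to 0.799), and with manassantin 0 of 12 were called. Of all genes 6.94% were called with rotenone and 0.970% with manassantin.

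**Figure D4:**
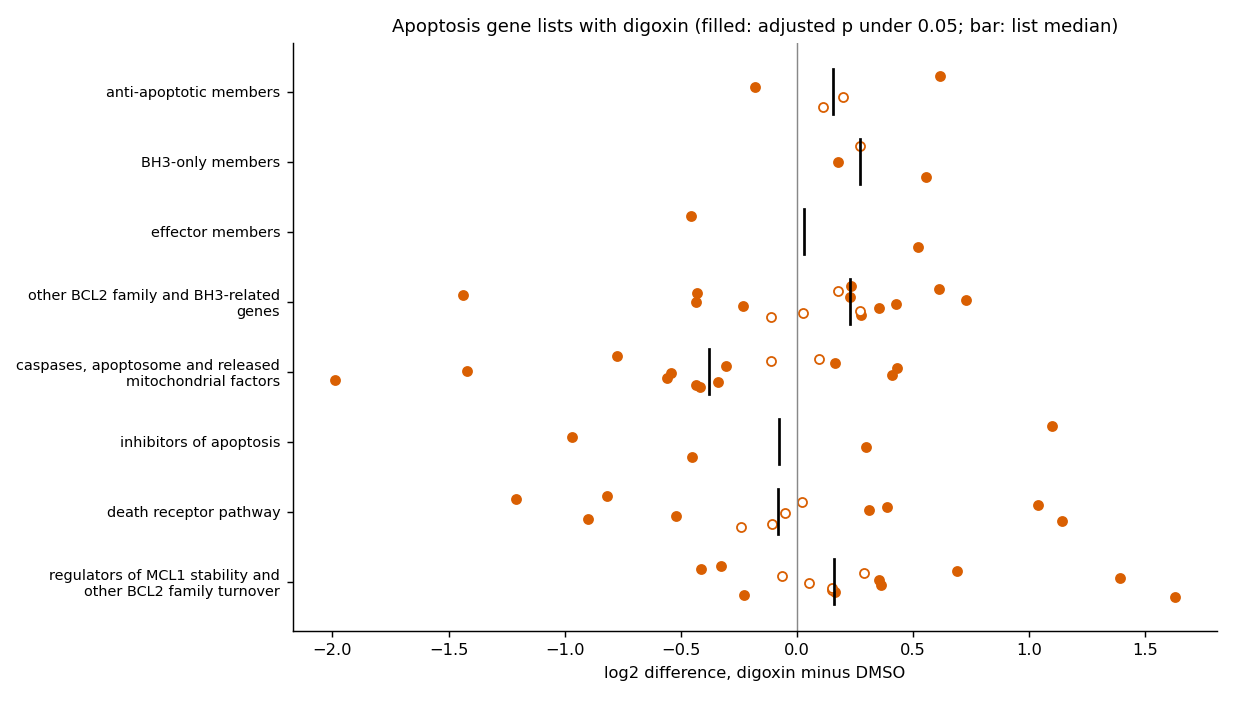
Log2 difference between digoxin and DMSO of each measured gene (point, main probe set) in the lists of apoptosis genes; filled points have an adjusted p under 0.05 and bars mark list medians. The caspase and mitochondrial factor list has its median at -0.379. All lists have called genes on both sides of 0, apart from the BH3-only members, whose 2 called genes rose on the main probe set.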

How the data were processed

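The 12 RNA samples were amplified, labelled with biotin and hybridized to Affymetrix GeneChip arrays, per the labels' protocols. The deposited values are probe set summaries read as log2 intensities, from their range of 1.65 to 13.8; how the authors corrected, summarised and normalized them was not stated in the sources read. Array medians were 5.881 to 5.995. For the main fit no value was rescaled and no gene was dropped for low signal. Of 22277 probe sets, 62 controls, 1043 with several symbols and 2108 with none were left out, and genes were named from the platform annotation. Groups came from the sample titles. limma 3.58.1 in R 4.3.3 fitted group means to all 12 arrays (8 residual degrees of freedom, prior 3.68). A gene's brightest probe set was used, with averaged or separate probe sets among the alternatives. Members and gene lists were chosen with earlier results of these data known. All members are named; of other lists reported, up to 3 called genes per direction. For manassantin and rotenone, same-numbered arrays deviated from their group means together (correlations 0.256, 0.362 and 0.107), so the number may pair them; the labels do not say what it marks. The number of arrays limits precision. The fit was tested on simulated data. A further gene list and a motif are not reported here. Figures used Python 3.11.15 and matplotlib 3.10.9.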

Additional observations from a re-analysis of the deposited data

How the results depend on the processing

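Besides leaving out each array in turn, the fits were repeated with dim genes removed, with other scalings (median centring, quantile normalization), with averaged or separate probe sets, with another prior, on just the groups compared, with the replicate number as a block and, added after seeing the data, with the 18S control as a covariate. Called members with manassantin stayed at 0 in each of them. With rotenone the 2 calls became 1 with dim genes removed, since BCL2L11 is dim, and 1 with the 18S covariate, and 3 with the trended robust prior, which called MCL1 lower, and with every probe set, where another MCL1 probe set was called higher; leaving out an array gave 1 to 2. Manassantin against rotenone went from 1 to 2 with the replicate block and with every probe set and to 0 with dim genes removed; leaving out an array gave 1. Leaving out an array gave 5 to 7 with digoxin, 6 to 7 for manassantin against digoxin and 4 to 7 for rotenone against digoxin, the 4 being without rotenone replicate 2. In the other comparisons the replicate block gave 0 with manassantin, 2 with rotenone and 7 with digoxin. It gave 7 for manassantin against digoxin and 7 for rotenone against digoxin, moving none of these counts by over 1.5 times. Same-numbered arrays there did not all correlate above 0.1, and whether the number pairs them was not tested. Median centring and quantile normalization each made rotenone against digoxin 1 higher and 5 lower in place of 2 and 4. Of all 11963 genes, the main fit called 3147 higher and 2892 lower in that comparison. Median centring called 2629 higher and 4494 lower, a shift of all genes toward lower. Quantile normalization called 3069 higher and 2884 lower, close to the main fit. Other probe sets pointed against the main one for many genes; those where either of the pair was called are given, for the members and, against DMSO, for the other genes named. For rotenone these were of MCL1 (0.215) and TNFRSF10C (-0.16). For digoxin they were of BCL2 (-0.803), BID (-0.214; mean of probe sets -0.0176), BIRC5 (-0.029), TRADD (0.20), MDM2 (0.258, 0.186 and 0.271) and CFLAR (-0.146, -0.0143, -0.29, -0.305, -0.255, -0.157 and -0.0191). For manassantin against rotenone MCL1 stood at -0.356, for manassantin against digoxin BCL2 at 0.723, BCL2L1 at -0.0516 and BID at 0.149, and for rotenone against digoxin BCL2 at 0.565 and BCL2L1 at -0.0327. The cause was not tested. No background level was measured, so how far it limits the dim members BCL2, BCL2A1 and BCL2L11 is unknown.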

Other observations

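Regulators of MCL1 stability and of BCL2 family transcription moved in both directions with digoxin: 6 of 14 rose and 3 fell, a called share of 64.3% near the 54.8% of all genes (median 0.158, all genes 0.0651). The stress factor gene ATF3 rose by 1.63 ± 0.070, GSK3B, a kinase that marks MCL1 for degradation, by 1.39 ± 0.054 and UBE2C by 0.69, while the deubiquitinase genes USP13 (-0.41) and USP9X (-0.33) and ATF4 (-0.23) were lower. Rotenone raised ATF3 (0.78, adjusted p = 9.5e-05) and GSK3B (0.24, adjusted p = 0.0206; kept in 2 of the 6 fits that left out an array, range 0.00582 to 0.102), and both were lower with manassantin than with rotenone (-0.73 and -0.29). In each of these 2 comparisons 2 of 14 were called, where 6.94% of all genes were with rotenone and 8.47% for manassantin against rotenone. With manassantin against DMSO 0 of 14 were called, where 0.970% of all genes were.

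The genes whose values followed a member most closely over the 12 arrays were found for the 4 members with the widest range of group means. For MCL1 they were LEPROT, ANAPC13 and PTBP1 (Pearson r = 0.996, 0.994 and 0.994), and 377 genes exceeded 0.95, since MCL1 and many others separate digoxin from the rest. For BCL2L11 they were the histone gene H2AC6, TIGAR and CKS2 (0.970, 0.964 and 0.963), and 11 genes exceeded 0.95. For BAK1 they were DUSP1, TMEM11 and ARHGAP17 (0.966, 0.966 and 0.965), and for PMAIP1 RASA2, NCAPG2 and OLR1 (0.958, 0.943 and 0.930). The arrays fall into groups, so these correlations describe shared group differences and carry no test.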
